A study of Gallus gallus with 4 samples.

Results

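The genes described here are 3 fibroblast growth factor (FGF) receptors, FGFR1, FGFR2 and FGFR3, and 7 genes that report the activity of the kinase ERK, namely DUSP6, DUSP4, SPRY1, SPRY2, SPRED1, ETV4 and ETV5. They were measured in PR9692, a chicken sarcoma cell line. They were taken as every probe set of the array whose gene symbol in the platform's annotation is among these 10, which gave 26 probe sets of 38535. Each of the 10 genes had at least 1 probe set whose mean over the arrays was at least 4 on the log2 scale, the minimum for testing, and 18 of the 26 passed it, of 14851 that passed in all. The other 8 read between 2.37 and 3.84 on every array and were not tested. PR9692 cells of the chicken strain CC.R1 had been stably transfected with a short hairpin RNA (shRNA) targeting HOPX, a gene for a small homeodomain protein, or with a control shRNA. The design text calls the anti-HOPX form non-metastatic and the control form metastatic, and the comparison addresses how their transcripts differ. Each form has 2 Affymetrix arrays, which the labels call biological replicates without saying whether they were separate cultures or whether a form is a clone or a pool. The p-values thus measure the spread between these arrays, which may be technical, and their number limits the precision.

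FGF receptors are receptor tyrosine kinases that bind FGF ligands together with heparan sulphate on the cell surface. Through the adaptor FRS2 and the GRB2 and SOS proteins they switch on RAS, and RAS activates the kinases RAF, MEK and ERK in turn. ERK signalling induces genes that restrain it: the dual-specificity phosphatases DUSP6 and DUSP4 dephosphorylate MAP kinases, and the Sprouty and SPRED proteins act on the pathway above ERK. ETV4 and ETV5 are ETS transcription factors of the PEA3 group that are commonly induced by FGF signals in embryos. Because these genes follow the pathway's activity, their transcript levels are often read together as a measure of ERK output.

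Values below are log2 levels as GCRMA gives them, and each difference is the anti-HOPX mean minus the control mean. Levels of different probe sets are not compared, since each has its own response. The arrays had medians from 3.12 to 3.15 over all probe sets. HOPX itself lay near the background, at 3.21 and 3.54 on the anti-HOPX arrays and 3.23 and 3.72 on the control arrays for its brighter probe set. That difference of -0.10 (limma adjusted p = 0.85) gives no check of the labels. Of 14 mesenchymal markers, which a sarcoma line should express, 10 had a mean of at least 4, and their sum over all 14 ranged from 127.6 to 131.6 on the anti-HOPX arrays and from 124.2 to 126.6 on the control arrays. Of these COL1A1 alone was called, higher by 1.73 (limma adjusted p = 0.0020). COL1A2 and PDGFRA were under the minimum for testing and went opposite ways. COL1A2 averaged 2.59 on the anti-HOPX arrays and 4.76 on the control arrays. PDGFRA averaged 4.24 on the anti-HOPX arrays and 2.78 on the control arrays. None of the 5 epithelial, 3 erythroid or 6 muscle markers with a probe set reached a mean of 4, whereas 1 of 6 endothelial and 3 of 9 leukocyte markers did. The 3 were SPI1, CD3D and CD74. SPI1 averaged 8.70 on the anti-HOPX arrays and 8.17 on the control arrays (limma adjusted p = 0.17). CD3D was called lower, with means of 5.48 on the anti-HOPX arrays and 6.59 on the control arrays (limma adjusted p = 0.037), and CD74 higher, with 6.15 on the anti-HOPX arrays and 4.70 on the control arrays (limma adjusted p = 0.025). The pan-leukocyte gene PTPRC was under 4, and the leukocyte sums were 36.7 to 37.3 on the anti-HOPX arrays and 35.9 to 36.0 on the control arrays. The part of these marker differences in the results below was not tested, and in a bulk sample fewer cells of a type and less RNA per cell cannot be told apart.

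FGFR1 and DUSP6 fell, ETV4 rose, and the other 7 genes did not pass the test, an adjusted p under 0.05 by limma over all tested probe sets. DUSP4, SPRY1 and SPRY2 lay below the control arrays on both anti-HOPX arrays without passing, and FGFR2, FGFR3, SPRED1 and ETV5 had differences close to 0 or probe sets of opposite sign.

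FGFR1, a receptor that is widely expressed in mesenchymal cells, had the largest difference of the 10 genes. Its probe set read 7.42 and 7.21 on the anti-HOPX arrays and 8.55 and 8.82 on the control arrays. The forms did not overlap, and the gap between them was wider than the gap between arrays of either form. The mean was 7.31 ± 0.15 in anti-HOPX cells and 8.68 ± 0.19 in control cells (SD, n = 2 each), lower by a log2 difference of -1.37 (SE 0.19, limma adjusted p = 0.018) that corresponds to a 2.59-fold lower level. Of all tested probe sets 3.95% had a larger absolute difference. FGFR1 has this probe set alone in the table, so no other probe set of the gene can be set beside it.

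FGFR2, a receptor best known for its part in epithelial and skeletal development, was not called. Its brightest probe set read 8.33 and 8.66 on the anti-HOPX arrays and 8.32 and 8.31 on the control arrays, so that 1 anti-HOPX array lay with the control arrays and the other above them. The difference of 0.18 had a 95% interval from -0.28 to 0.63 (limma adjusted p = 0.61). Its second probe set read 7.16 and 7.61 on the anti-HOPX arrays, on either side of the 7.43 and 7.41 on the control arrays. The dimmest tested probe set was the most scattered, at 4.35 and 4.44 on the anti-HOPX arrays and 4.10 and 5.13 on the control arrays. The 3 differences ran from -0.22 to 0.18, and the interval of the brightest does not reach a fall of the size seen for FGFR1.

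FGFR3, a receptor known for restraining the growth of cartilage, was measured by 3 dim probe sets that differed in sign. The brightest by mean read 5.85 and 6.005 on the anti-HOPX arrays and 5.57 and 5.67 on the control arrays, a difference of 0.31 (95% interval -0.17 to 0.80, limma adjusted p = 0.38). Another read 5.77 and 5.40 on the anti-HOPX arrays and 5.99 and 5.64 on the control arrays, where the forms overlapped and the difference was -0.23. The dimmest read 5.73 and 5.18 on the anti-HOPX arrays and 5.17 and 4.90 on the control arrays, a difference of 0.42 (limma adjusted p = 0.37). No direction is given for FGFR3.

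**Figure D1:**
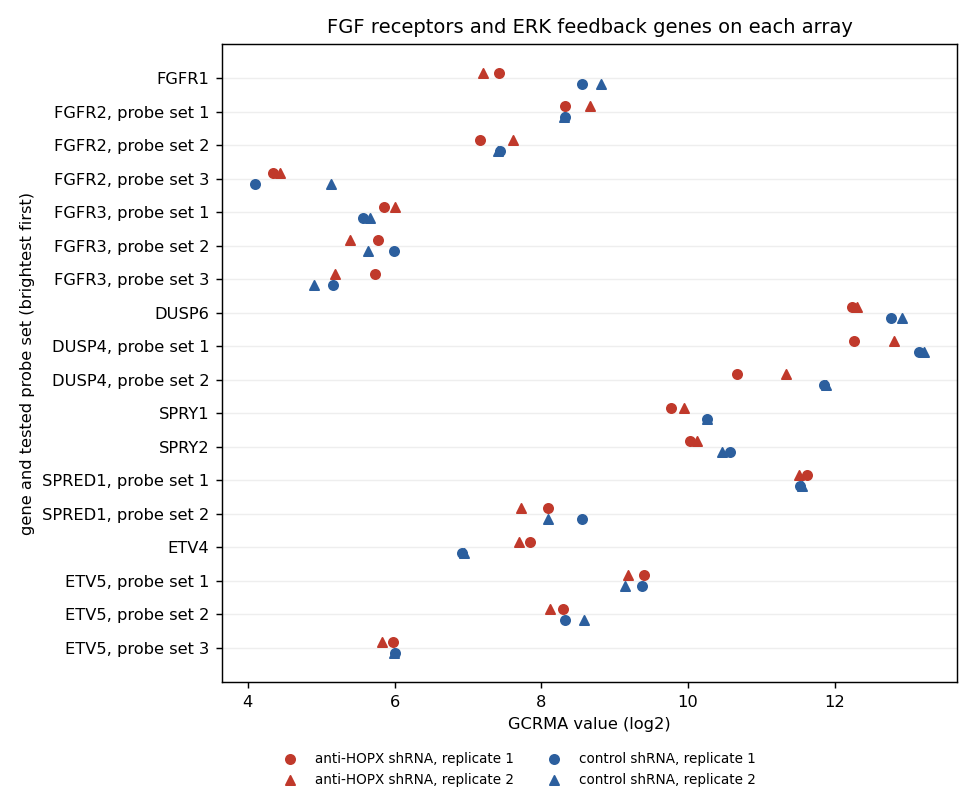
GCRMA values (log2, horizontal axis) of the 18 tested probe sets, 1 row each, with the 2 anti-HOPX arrays in red above the 2 control arrays in blue. In 9 rows both red points lie left of the blue points. These are FGFR1, DUSP6, both DUSP4 probe sets, SPRY1, SPRY2 and some probe sets of SPRED1 and ETV5. In 4 rows they lie right, those of ETV4 and some probe sets of FGFR2 and FGFR3. Over all tested genes, at 1 probe set each, the arrays of the forms did not overlap for 58.2%, in either direction. Positions of different rows are not comparable.

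DUSP6, a cytoplasmic phosphatase that is specific for ERK, fell by less than FGFR1 but with closely spaced arrays. It read 12.23 and 12.30 on the anti-HOPX arrays and 12.76 and 12.91 on the control arrays. The mean of 12.27 ± 0.05 in anti-HOPX cells lay below that of 12.83 ± 0.10 in control cells (SD, n = 2 each). The difference was -0.57 (SE 0.11, limma adjusted p = 0.040), a 1.48-fold lower level, and 21.7% of all tested probe sets had a larger absolute difference. Without limma's variance trend the same difference had an adjusted p of 0.10.

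DUSP4, a nuclear phosphatase of the same family that acts on ERK and on other MAP kinases, had larger differences than DUSP6 but did not pass. Its brightest probe set read 12.26 and 12.80 on the anti-HOPX arrays and 13.15 and 13.21 on the control arrays, with -0.65 between the means (SE 0.19, limma adjusted p = 0.10). The second read 10.66 and 11.34 on the anti-HOPX arrays and 11.85 and 11.88 on the control arrays, with -0.87 between the means (SE 0.23, limma adjusted p = 0.087). On both probe sets anti-HOPX replicate 1 was the lower array, replicate 2 lay between it and the control arrays, and the control arrays were nearly equal. The anti-HOPX arrays were 0.54 and 0.68 apart on the 2 probe sets, against 0.07 and 0.03 for the control arrays. The remaining DUSP4 probe set lay under the minimum for testing.

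The Sprouty genes SPRY1 and SPRY2, whose proteins inhibit RAS and ERK activation by growth factor receptors, had similar differences, and neither passed. SPRY1 read 9.76 and 9.95 on the anti-HOPX arrays and 10.26 on each control array, a difference of -0.40 (95% interval -0.75 to -0.06, limma adjusted p = 0.14). SPRY2 read 10.03 and 10.13 on the anti-HOPX arrays and 10.57 and 10.46 on the control arrays, a difference of -0.44 (95% interval -0.76 to -0.11, limma adjusted p = 0.11). In both genes the 2 anti-HOPX arrays lay below the 2 control arrays. The intervals are for a single probe set and leave out 0, whereas the adjusted p allows for all probe sets tested.

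SPRED1, a Sprouty-related protein that recruits the RAS inhibitor neurofibromin to the membrane, gave different values on its 2 tested probe sets. The brightest read 11.61 and 11.52 on the anti-HOPX arrays and 11.53 and 11.56 on the control arrays, a difference of 0.02 (95% interval -0.26 to 0.30, limma adjusted p = 0.93). The other read 8.09 and 7.72 on the anti-HOPX arrays and 8.55 and 8.10 on the control arrays, a difference of -0.42 (limma adjusted p = 0.33). There the higher anti-HOPX array and the lower control array nearly touched.

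**Figure D2:**
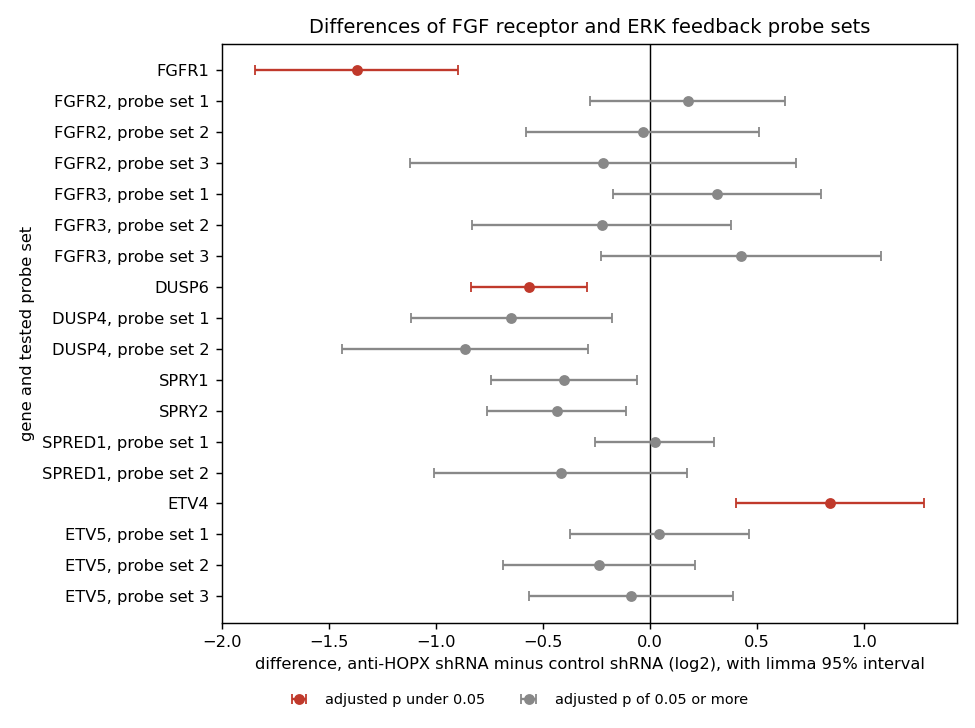
Difference of each tested probe set (log2, anti-HOPX minus control, horizontal axis) with its 95% interval from limma, in red where the adjusted p was under 0.05. FGFR1 at -1.37 and DUSP6 at -0.57 are lower, ETV4 at 0.84 is higher, and the intervals of DUSP4, SPRY1 and SPRY2 lie below 0 without the adjusted p passing.

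ETV4 went the other way from DUSP6. It read 7.84 and 7.70 on the anti-HOPX arrays and 6.92 and 6.94 on the control arrays, so both anti-HOPX arrays were higher by far more than the replicates differed. The mean was 7.77 ± 0.10 in anti-HOPX cells and 6.93 ± 0.02 in control cells (SD, n = 2 each). The difference of 0.84 (SE 0.18), a 1.79-fold higher level, lay at the edge of the threshold with a limma adjusted p of 0.0498, and 10.7% of all tested probe sets had a larger absolute difference. The adjusted p was 0.052 when single array values under 4 were raised to 4. The other ETV4 probe set lay under the minimum for testing, at 3.74 and 3.84 on the anti-HOPX arrays and 3.67 and 3.51 on the control arrays.

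ETV5, the other member of the PEA3 group among these genes, was not called. Its brightest probe set read 9.40 and 9.18 on the anti-HOPX arrays and 9.37 and 9.14 on the control arrays, a difference of 0.04 (95% interval -0.38 to 0.46, limma adjusted p = 0.91). The second read 8.30 and 8.12 on the anti-HOPX arrays and 8.32 and 8.58 on the control arrays, a difference of -0.24 (limma adjusted p = 0.47). The dimmest averaged 5.90 on the anti-HOPX arrays and 5.99 on the control arrays. Whether ETV5 and ETV4 differ in their response was not tested.

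With 1 probe set per gene, 1 of the 10 genes rose and 2 fell, where 8.87% of all 7691 tested genes were called, 3.63% higher and 5.24% lower. As probe sets, 3 of the 18 were called, against 7.66% of all. At an unadjusted limma p under 0.05, 1 of the 10 genes was higher and 5 were lower, where 27.7% of all tested genes passed in either direction, 13.1% higher and 14.5% lower. The arrays of the 2 forms did not overlap for 8 of the 10 genes, 3 higher and 5 lower, where 58.2% of all tested genes did not overlap. FGFR2 is among the 3 by a very small gap, with 8.33 on its lower anti-HOPX array and 8.32 on its higher control array. The median difference of the 10 genes was -0.19, against 0.02 over all tested genes, and their median absolute difference was 0.42, against 0.27. The smallest p that an exact permutation test of 2 against 2 arrays can give is 0.33, so the calls use limma's estimate of the spread, which borrows from all probe sets.

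The 3 calls were lost without either control array, as were most of the calls over all tested probe sets. Without control replicate 1 the difference was -1.51 for FGFR1, -0.64 for DUSP6 and 0.83 for ETV4, with limma adjusted p of 0.14, 0.25 and 0.31. Without control replicate 2 it was -1.24, -0.49 and 0.85, with adjusted p of 0.20, 0.34 and 0.31. ETV4 was also not called without anti-HOPX replicate 1, where its difference was 0.77. The brightest DUSP4 probe set differed by -0.38 without anti-HOPX replicate 1 and by -0.92 without anti-HOPX replicate 2. The second DUSP4 probe set differed by -0.53 and -1.20. In these fits the spread of DUSP4 came from the nearly equal control arrays alone, so they do not settle whether DUSP4 passes. None of the 3 was called without the filter on low values, with adjusted p of 0.091 for FGFR1, 0.11 for DUSP6 and 0.14 for ETV4. With each array left out in turn, the signs of FGFR1, DUSP6, DUSP4, SPRY1, SPRY2 and ETV4 stayed the same. That outcome was fixed beforehand, because the arrays of the 2 forms do not overlap for these genes.

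**Figure D3:**
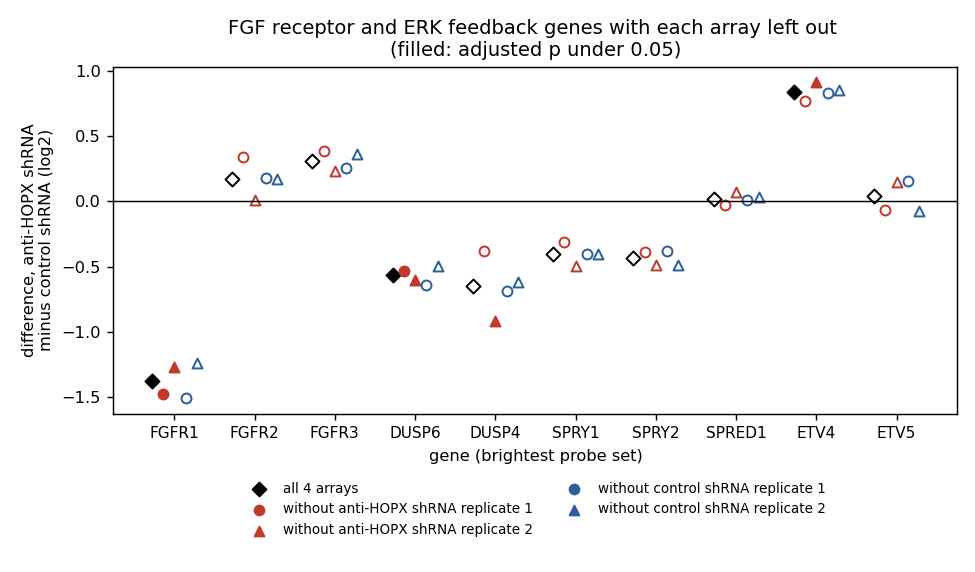
Difference (log2, anti-HOPX minus control, vertical axis) of the brightest probe set of each of the 10 genes with all 4 arrays and with each array left out, filled where the limma adjusted p was under 0.05. FGFR1 stays between -1.51 and -1.24 and ETV4 between 0.77 and 0.91, but their symbols are open without either control array. With 1 array left in a form, that form is assumed to vary like the other.

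Other genes of the pathway were taken from 7 lists that cover ligands, co-receptors, heparan sulphate, adaptors, the kinase cascade, other feedback genes and other ERK outputs. Of 81 tested genes 6 rose, 5 fell and 70 did not pass, so that 13.6% were called, against 8.87% of all tested genes (3.63% higher and 5.24% lower). Their median difference was -0.05, against 0.02 over all tested genes.

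FGF ligands were hardly seen on the arrays. Of 18 with a probe set, FGF1 alone reached the minimum for testing, and the brightest probe sets of the other 17 averaged 2.09 to 3.45 over the 4 arrays. FGF1, a ligand that binds all FGF receptors, read 4.80 and 3.93 on the anti-HOPX arrays and 3.73 and 3.61 on the control arrays (limma adjusted p = 0.25). Of 13 other receptor and co-receptor genes 3 were tested, with FGFR4, KL and KLB under the minimum. None of the 3 was called by limma, against 8.87% of all tested genes. At an unadjusted limma p under 0.05 stood 2 of them, against 27.7% of all tested genes. FGFRL1, an FGF receptor without a kinase domain, read 9.50 and 9.59 on the anti-HOPX arrays and 8.91 and 8.86 on the control arrays, a difference of 0.66 that did not pass (limma adjusted p = 0.053). Another FGFRL1 probe set gave a like difference of 0.79 (limma adjusted p = 0.054). The FGF-binding protein FGFBP1 differed by 1.16 on a single high array (limma adjusted p = 0.40).

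Among 16 heparan sulphate genes 3 rose and 2 fell, where 8.87% of all tested genes were called. GPC4, a glypican that carries heparan sulphate at the cell surface, read 8.49 and 8.77 on the anti-HOPX arrays and 6.80 and 6.74 on the control arrays, a rise of 1.85 (limma adjusted p = 0.0069). NDST2, a sulphotransferase of heparan sulphate synthesis, rose by 1.27 (limma adjusted p = 0.0096) and its second probe set by 1.22. HS6ST2, a 6-O-sulphotransferase outside the naming rule and chosen after its value was seen, rose 2.14-fold on its brightest probe set (limma adjusted p = 0.032), whereas its other differed by 0.37 (limma adjusted p = 0.36). HS3ST1, a 3-O-sulphotransferase, read 3.17 and 3.27 on the anti-HOPX arrays and 5.82 and 6.83 on the control arrays, a difference of -3.10 (limma adjusted p = 0.011). With values under 4 raised to 4 it was at least 5.01-fold lower. That floor makes the 2 anti-HOPX arrays equal, so the fit with it gives no check of the call. The proteoglycan SDC1 fell by 1.31 on its brightest probe set (limma adjusted p = 0.0041), whereas the other differed by 0.06 (limma adjusted p = 0.90). SDC2 differed by 0.63 on its brightest probe set (limma adjusted p = 0.13) and by 1.27 on the other (limma adjusted p = 0.036). HS2ST1 differed by 0.49 on its brightest probe set (limma adjusted p = 0.20) and by -0.0003 on the other.

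Between receptor and RAS, 1 of 18 adaptors and RAS regulators rose and 1 fell, close to the 8.87% called among all tested genes. RASGRP3, an exchange factor that loads RAS proteins with GTP, read 8.98 and 7.74 on the anti-HOPX arrays and 5.42 and 3.74 on the control arrays. The arrays of each form lay more than 1 apart, and the difference was 3.78 (limma adjusted p = 0.031). It ranged from 2.93 to 4.62 with each array left out in turn and was not called without control replicate 1 (4.62, limma adjusted p = 0.063) or control replicate 2 (2.93, limma adjusted p = 0.16). GAB2, a docking protein of receptor tyrosine kinases, read 5.83 and 5.99 on the anti-HOPX arrays and 8.36 and 8.47 on the control arrays, a 5.67-fold lower level (limma adjusted p = 0.0023). Another GAB2 probe set fell by 2.34 and the remaining one showed a difference of -0.03 (limma adjusted p = 0.96). The GTPase-activating proteins RASA2 and RASA3 differed by -0.82 and 0.74 without passing (limma adjusted p of 0.12 and 0.055). For the adaptor GRB2, which counts here as not called, the probe sets disagreed. Its brightest had a difference of 0.08 (limma adjusted p = 0.73). A dimmer one passed as lower, at -0.69, though at the edge of the threshold (limma adjusted p = 0.0496). The remaining GRB2 probe set was at -0.04 and did not pass (limma adjusted p = 0.90).

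None of 12 tested genes of the RAS, RAF, MEK and ERK cascade was called by limma, where 8.87% of all tested genes were called. At an unadjusted limma p under 0.05 stood 2 of the 12, against 27.7% of all tested genes. The median absolute difference of the 12 was 0.16, below the 0.27 of all tested genes. The kinases RPS6KA1, which ERK activates, and BRAF were farthest from 0, at -1.66 (limma adjusted p = 0.15) and -1.13 (limma adjusted p = 0.077). Another BRAF probe set differed by -0.53 (limma adjusted p = 0.24). RPS6KA1 had a wide spread, with 5.91 and 4.19 on the anti-HOPX arrays and 6.97 and 6.44 on the control arrays.

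The list of other feedback genes includes phosphatases that act on other MAP kinases than ERK. Of its 10 tested genes 1 rose and 1 fell, both of them phosphatases of the DUSP family. Of all tested genes 8.87% were called. DUSP7, which like DUSP6 acts on ERK, read 4.62 and 3.71 on the anti-HOPX arrays and 6.76 and 6.28 on the control arrays, a difference of -2.36 (limma adjusted p = 0.024). With values under 4 raised to 4 it was at least 4.63-fold lower (limma adjusted p = 0.017). That floor raises 1 anti-HOPX array and so narrows the gap between the arrays of that form. DUSP10, which acts on the stress kinases p38 and JNK, read 8.65 and 9.52 on the anti-HOPX arrays and 6.91 and 7.12 on the control arrays, a rise of 2.07 (limma adjusted p = 0.023). DUSP5 differed by -0.28 on its brightest probe set (limma adjusted p = 0.30) and by -1.51 on another (limma adjusted p = 0.045). DUSP16 and RASSF1 differed by -0.89 and -0.58 and did not pass (limma adjusted p of 0.070 and 0.10).

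Of 21 other ERK output genes EGR1 fell by 1.59 (limma adjusted p = 0.016) and KLF2 rose by 1.07 (limma adjusted p = 0.00996). These 2 calls are a share of 9.52%, near the 8.87% of all tested genes. The remaining 19 did not pass, among them VEGFA at -1.29 (limma adjusted p = 0.061) and EPHA2 at -1.13 (limma adjusted p = 0.11). PHLDA2 differed by -0.41 on its brightest probe set (limma adjusted p = 0.21) and by -0.80 on another (limma adjusted p = 0.043). The median difference of this list was -0.41 and 16 of its 21 genes were below 0. Over all 7691 tested genes the median was 0.02 and 3677 genes were below 0. The list was chosen with earlier results of these data known, so its lean is no test of ERK output. At an unadjusted limma p under 0.05 stood 11 of the 21, against 27.7% of all tested genes. Most of the 10 pathway genes named as called by the rule were no longer called without either control array. HS3ST1 differed by -3.61 without control replicate 1 and by -2.60 without control replicate 2, and GAB2 by -2.56 and -2.45. These values give the size of the differences alone, and GAB2 did not keep its call in both fits. HS3ST1 reached a mean of 4 through its control arrays alone, as its anti-HOPX arrays read 3.17 and 3.27. Values that low vary little between arrays, so these fits give no check of its call.

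**Figure D4:**
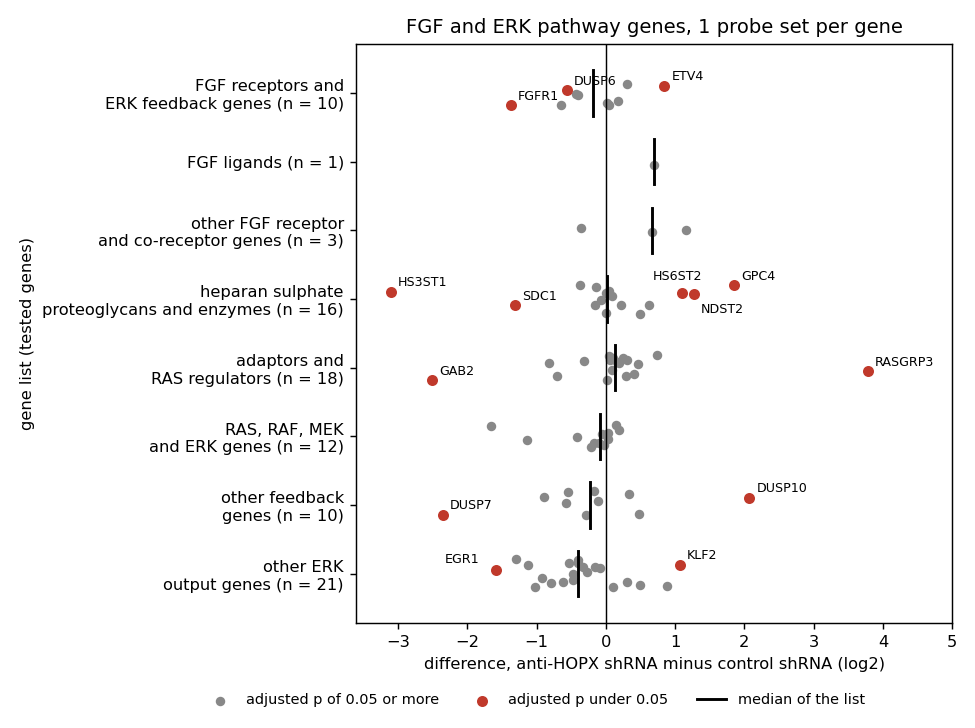
Differences (log2, anti-HOPX minus control, horizontal axis) of the tested genes of each list, 1 point per gene, in red where the limma adjusted p was under 0.05, with a bar at each list's median. Called genes lie on both sides of 0 in the heparan sulphate, adaptor, feedback and output lists, while no gene of the kinase cascade is red. Of all tested genes 8.87% were called.

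The genes most alike to the 3 called ones were found by the Euclidean distance between values over the 4 arrays, each gene centred on its own mean. For FGFR1 these were C3orf70, IL8L2 and TMEM47, at distances of 0.11, 0.15 and 0.15 on the log2 scale. IL8L2, a chemokine, read 10.05 and 9.91 on the anti-HOPX arrays and 11.15 and 11.60 on the control arrays. The other genes were dim. C3orf70 read 4.04 and 3.98 on the anti-HOPX arrays and 5.20 and 5.51 on the control arrays. TMEM47 read 3.98 and 3.95 on the anti-HOPX arrays and 5.22 and 5.38 on the control arrays. Their anti-HOPX values lay about the minimum for testing, where the size of a difference is uncertain. For DUSP6 they were ATXN7L1, LRCH3 and MAP7D2, at 0.01, 0.02 and 0.02, none of which passed the test itself (limma adjusted p from 0.087 to 0.14). For ETV4 they were CHIC2, RAB31 and MAN1A1, at 0.06, 0.06 and 0.07. With 4 arrays in 2 forms, genes with a difference of like size and sign are alike by this measure.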

How the data were processed

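Total RNA was turned into biotin-labelled cRNA and hybridised to Affymetrix chicken arrays, per the labels' protocols. The authors deposited 1 log2 value for each probe set on each array, a scale inferred here from the range of the values. GCRMA and Partek 6.4 are named, without their roles, in the submitters' processing notes. GCRMA models probe background, normalises arrays to each other and pulls dim probe sets to a narrow floor, so small differences near it are unreliable. The sources used here do not give its settings.

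After removal of 96 Affymetrix control probe sets, probe sets with a mean over the 4 arrays of at least 4 were kept. Symbols came from the platform's annotation, updated through gene identifiers with a RefSeq table for GRCg7b. A gene was represented by its brightest probe set. The lists hold 183 symbols, of which 155 were matched. The members and lists were chosen with earlier results of these data known.

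The forms were compared with limma 3.58.1, run in R 4.3.3 (lmFit and eBayes, trend = TRUE, two-sided, 2 residual degrees of freedom and a prior of 3.54), with Benjamini-Hochberg adjustment over all kept probe sets and no replicate block. The script was tested on simulated data. Always named were the 10 genes and HOPX, and from each list up to 4 called genes and up to 2 others, by size of difference. Besides HS6ST2, the list genes GRB2, DUSP5 and PHLDA2 lie outside this rule. They were named after a dimmer probe set of each was seen to pass. Alternatives were other filters, thresholds, variance models, normalisations, gene summaries, a floor at 4, a replicate block and leaving out each array.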

Additional observations from a re-analysis of the deposited data

How the results depend on the processing

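The calls among the 10 genes (1 higher and 2 lower, by probe set and by gene alike) stayed at these counts when values were quantile normalised again or centred on each array's median, with limma's robust variance, and with a minimum mean of 6, which leaves FGFR3 without a value. With at least a 2-fold change required, FGFR1 alone stayed, so that 0 were higher and 1 lower. At an adjusted p under 0.01 limma called 0 of the 10 genes in either direction (6 had an unadjusted p under 0.05), 3 pathway genes were higher and 2 lower, and 77 probe sets in all were higher and 170 lower. At an adjusted p under 0.10 there were 12 pathway genes lower, and 917 probe sets higher and 1203 lower. Without the filter on low values, with all other probe sets tested too, 0 of the 10 genes were called by limma in either direction, with 1 pathway gene higher and 2 lower, and 80 probe sets higher and 194 lower in all. Of the 10 genes 1 was lower without the variance trend, where DUSP6 was lost. Again 1 was lower without the probe sets ending in _x_at, _s_at or _a_at, which leaves FGFR1 without a value. With values under 4 raised to 4, 0 were higher. With each array left out in turn, 0 to 1 of the 10 genes were higher and 0 to 3 lower (0 to 1 and 0 to 4 as probe sets), 0 to 9 pathway genes were higher and 1 to 19 lower, and 34 to 728 probe sets were higher and 108 to 1006 lower. HOPX then ranged from -0.34 to 0.15, SPRED1 from -0.0277 to 0.0702 and ETV5 from -0.0726 to 0.16, and each changed sign. As the mean of all tested probe sets, FGFR2 was -0.0261, SPRED1 -0.20 and ETV5 -0.10, each opposite in sign to its brightest probe set. Same-numbered arrays deviated together (r = 0.25 across probe sets), but 2 pairs do not show that the numbers pair the samples. With the replicate block 4 of the 18 probe sets were lower, both of DUSP4 among them (limma adjusted p of 0.011 and 0.0077), and it moved the counts to 10 pathway genes higher and 19 lower and to 1149 probe sets higher and 1549 lower. Where no cause is given, the cause was not tested. Dim probe sets limit FGFR3 and the FGF ligands.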

Other observations

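The nearest measured genes on either side of the 10 genes in the RefSeq gene order of GRCg7b numbered 20. Of these 1 was called, where 8.87% of all tested genes were called. The called neighbour was TMTC3, next to DUSP6, with a difference of -1.31 (limma adjusted p = 0.019). POC1B on the other side of DUSP6 differed by -0.44 (limma adjusted p = 0.21). LETM2 and TACC1, on either side of FGFR1, differed by -0.12 and -0.20 and did not pass (limma adjusted p of 0.70 and 0.50). DUSP3 and DHX8, on either side of ETV4, differed by -0.46 and 0.32 and did not pass (limma adjusted p of 0.29 and 0.34). These genes were looked up after the values of the 10 genes were known.

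On the 18 tested probe sets the gap between the replicates of a form had a median of 0.20 in anti-HOPX cells and 0.11 in control cells. Over all tested probe sets these medians were 0.25 in anti-HOPX cells and 0.16 in control cells.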
